A study of Mus musculus with 12 samples.

Results

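The sarcomeric myosin heavy chains are the motor proteins of the thick filament, and 8 of their genes (Myh1, Myh2, Myh3, Myh4, Myh6, Myh7, Myh7b and Myh8), taken by gene name, were followed in cultured mouse muscle cells among the 56941 genes of the deposited tables. All 8 passed the filter on low counts in the 12 libraries. The cells were C2C12, myoblasts of mouse origin that fuse into myotubes, grown on 1 mm of fibrin gel (8 mg fibrinogen per mL) and differentiated for 6 days under horse serum and IGF-1, with aminocaproic acid added. A line of genotype ChR2::tdTomato, the light-gated cation channel channelrhodopsin-2 joined to a red fluorescent protein (ChR2, 6 wells), was set against Wild-Type cells (WT, 6 wells) under the same culture. The labels name neither the promoter of the transgene nor whether the line is 1 clone, mention no light for these wells, and leave unsaid whether the wells were independent cultures. The p-values therefore measure only the spread between wells, which may be technical.

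A muscle fibre's contraction speed is set largely by which heavy chain it makes. Embryonic Myh3 and neonatal Myh8 are the developmental chains. Myh2 (type 2A), Myh1 (type 2X) and Myh4 (type 2B) are the adult fast chains. Myh7 is the slow chain of type 1 fibres and of the heart. Myh6 is the fast chain of the heart, and Myh7b is a slow-type chain of specialised muscles. In developing limb muscle the embryonic and neonatal chains come first and the adult chains replace them. C2C12 myotubes are known to make a mixture of them.

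The fast and developmental genes lie side by side on 1 chromosome, and the start regions of 4 of them share a run of bases. In GENCODE M21 (GRCm38), Myh3, Myh2, Myh1, Myh4 and Myh8 follow each other in that order on the plus strand, from chr11:67078300 to chr11:67308634. Myh6 (chr14:54941921-54966927) and Myh7 (chr14:54970684-54994626) are neighbours on the minus strand, and Myh7b is at chr2:155611212-155634307. All 8 had a promoter window in RefSeq's table for GRCm38.p6, 250 bases before to 50 bases after a start. There were 9 windows, because Myh7 has 2 starts. The windows of Myh1, Myh2, Myh4 and Myh8 were searched for the longest run that all 4 hold on the strand of the gene. It was 14 bases, TTCTAATTATATCC. Those 4 are the windows that hold it among 32817 of this length (0.0122%). Its presence in them was set by the search, so that share is a description and not a test. Myh3, Myh6, Myh7 and Myh7b were not in that search. The windows of Myh1 and Myh8 are shown for that run, and those of Myh3 and Myh7 as the embryonic and the slow chain that lack it. Capitals mark matches to any motif searched on both strands: the E-box (letters CANNTG), the TATA box (letters TATAAA), the MCAT core (letters CATTCC), the consensus sites of MEF2 and of the CArG box, and the shared run.
Myh1, chr11:67199852-67200151, plus strand: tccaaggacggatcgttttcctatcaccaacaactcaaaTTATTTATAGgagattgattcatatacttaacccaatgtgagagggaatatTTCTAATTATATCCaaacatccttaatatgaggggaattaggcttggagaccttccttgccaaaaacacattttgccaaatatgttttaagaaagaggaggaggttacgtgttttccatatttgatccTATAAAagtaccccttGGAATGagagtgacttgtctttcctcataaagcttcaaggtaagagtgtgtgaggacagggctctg
Myh8, chr11:67276874-67277173, plus strand: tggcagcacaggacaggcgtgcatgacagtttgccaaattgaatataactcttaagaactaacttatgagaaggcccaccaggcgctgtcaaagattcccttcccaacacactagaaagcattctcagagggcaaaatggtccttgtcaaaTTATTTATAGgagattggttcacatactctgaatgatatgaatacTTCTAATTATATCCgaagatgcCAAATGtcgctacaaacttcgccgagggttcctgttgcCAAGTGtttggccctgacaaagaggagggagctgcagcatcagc
Myh3, chr11:67078050-67078349, plus strand: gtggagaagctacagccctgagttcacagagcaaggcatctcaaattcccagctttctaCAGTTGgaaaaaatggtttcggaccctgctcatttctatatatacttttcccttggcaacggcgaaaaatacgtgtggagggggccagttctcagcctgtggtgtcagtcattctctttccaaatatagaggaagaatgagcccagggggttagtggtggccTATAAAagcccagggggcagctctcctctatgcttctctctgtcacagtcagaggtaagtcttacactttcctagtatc
Myh7, chr14:54994500-54994799, minus strand: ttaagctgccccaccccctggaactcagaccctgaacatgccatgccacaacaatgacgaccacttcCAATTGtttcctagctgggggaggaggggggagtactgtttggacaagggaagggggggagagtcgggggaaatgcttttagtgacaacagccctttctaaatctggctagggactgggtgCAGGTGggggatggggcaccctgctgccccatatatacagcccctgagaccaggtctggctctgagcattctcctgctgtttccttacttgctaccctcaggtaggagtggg

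The MEF2 consensus, bound by factors that act with the myogenic regulators, was matched in 3 of the 9 windows (Myh1, Myh4 and Myh8) against 3.19% of all windows. Each of those matches overlaps a TATAAA match, and lies upstream of the shared run. TATAAA was matched in 6 of the 9 windows (13.6% of all), the E-box in 7 (72.3%), MCAT in 4 (14.7%) and the CArG box in 1, that of Myh4 (1.63%). A TATAAA match began at base -32 in Myh1, -29 in Myh3 and -31 in Myh4, but at base 10 in Myh2 and 1 in Myh6. In Myh8 its only match lay within the MEF2 match. The Myh7 windows overlap and hold the same E-boxes, CAATTG and CAGGTG. Counted from the RefSeq start, the shared run begins at base -160 in Myh1, -158 in Myh4, -125 in Myh2 and -54 in Myh8. A match describes letters in the window and does not show a bound site.

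**Figure D1:**
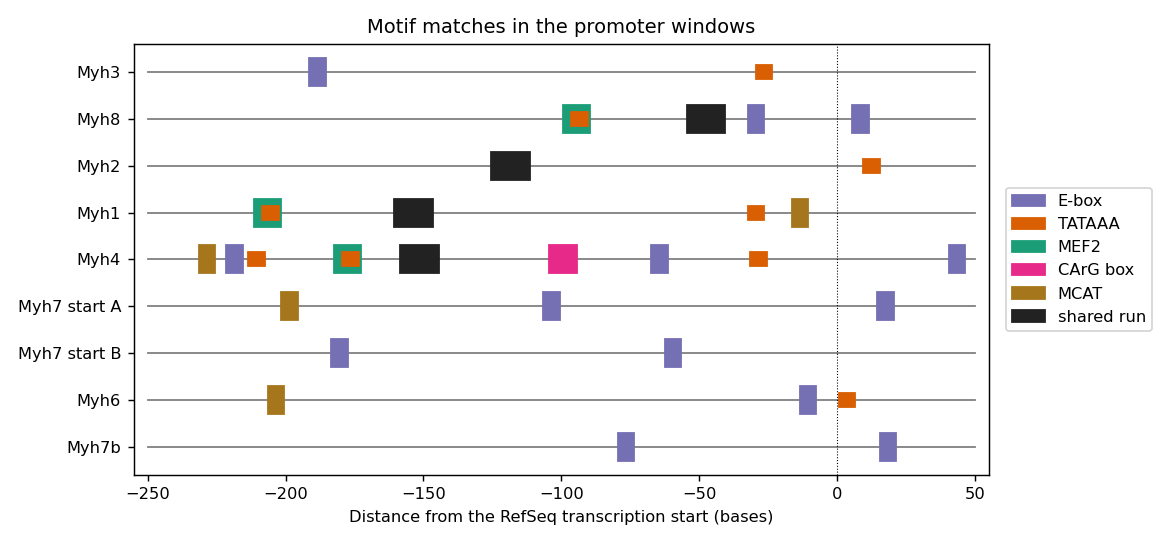
Motif matches in the 9 promoter windows of the 8 heavy chain genes, plotted by distance in bases from the RefSeq start (dotted line at 0). Coloured boxes are motifs; the black box, the shared run of 14 bases, appears in the windows of Myh8, Myh2, Myh1 and Myh4 and in none of the other 5.

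Introns of Myh6, Myh7 and Myh7b are also known to hold microRNAs, and RefSeq places each of the following within the span of its host gene on the same strand. Capitals mark the seed, bases 2 to 8, which pairs with target messages. The seed UAAGACG is shared by the microRNAs of Myh6 and Myh7, and that of Myh7b has the seed UAAGACU.
miR-208a-3p (Myh6): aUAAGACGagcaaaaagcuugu
miR-208b-3p (Myh7): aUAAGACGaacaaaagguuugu
miR-499-5p (Myh7b): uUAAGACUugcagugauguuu
The 3 precursor genes (Mir208a, Mir208b and Mir499) had a count of 0 in every library. Mature microRNAs are not among the features whose values are reported here.

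WT wells 2 and 5 stood apart before any heavy chain was compared. Total estimated counts were 1061068 and 2809669 in them, against 10268067 to 13628569 in the other 4 WT libraries and 7388761 to 12229458 in the ChR2 libraries. The 7SL RNAs, which lack a poly(A) tail, took 24.8% and 8.37% of their counts and at most 0.0341% elsewhere. The labels' protocol has low-input samples ribodepleted, without naming them, and whether these wells were among them was not tested. Results are therefore given with and without these wells. The labelled cell type, myoblast, was checked after its differentiation: all 10 myotube markers (Myog, Mymk, Mymx, Ckm, Acta1, Tnnt3, Tnni2, Ttn, Des and Atp2a1) passed the filter. Their summed level was 11525 to 14685 CPM in ChR2 and 10591 to 28128 CPM in WT wells, or 10591 to 18100 CPM without WT wells 2 and 5.

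ChR2 and WT wells made a different mixture of heavy chain messages. Slow Myh7 took 12.1% ± 1.55 of the summed heavy chain TPM in ChR2 and 5.20% ± 0.35 in WT wells (SD, n = 6 wells each). Cardiac Myh6 was higher with it, while neonatal Myh8 and the type 2X chain Myh1 took a smaller share in ChR2. TPM is the authors' count per transcript length, scaled within a library, so that shares compare genes within a well. For these 4 genes the 6 ChR2 wells and the 6 WT wells did not overlap, and for Myh2, Myh3, Myh4 and Myh7b they did. Shares add to 100% within a well, so a larger share of 1 chain lowers the others, and the 8 shares are not independent. Each was tested by a two-sided exact permutation test over wells, unadjusted for the 8 tests, whose smallest possible p with 6 against 6 wells is 0.00216. A share is defined only among the 8 genes and has no background over all genes.

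**Figure D2:**
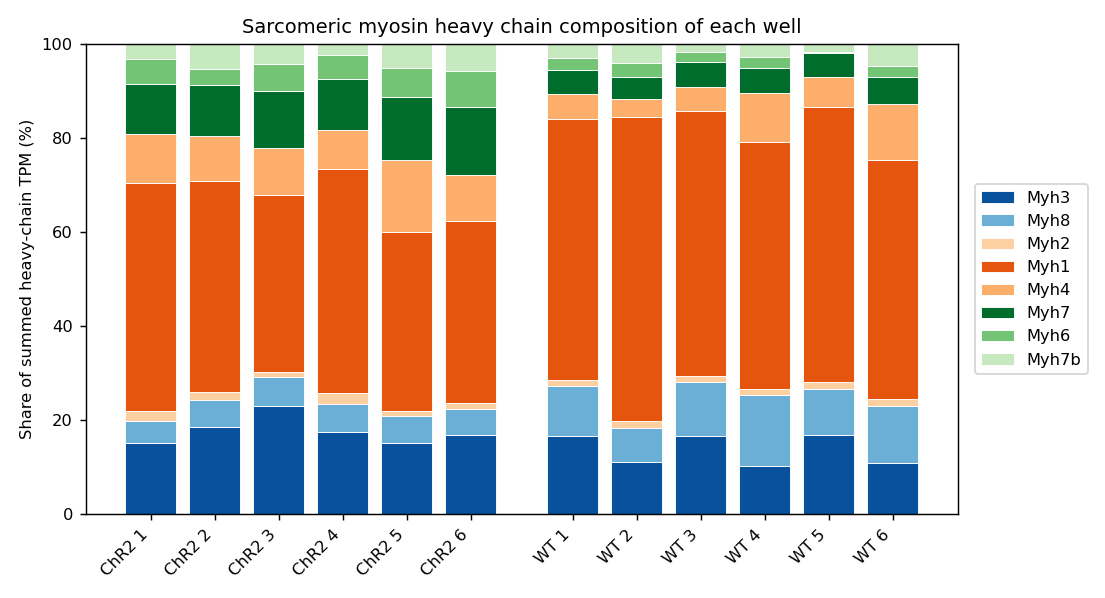
Share of the summed TPM of the 8 heavy chains (percent, vertical axis) in each of the 12 wells, 1 stacked bar per well. Myh1 (dark orange) is the largest part of every bar, Myh7 (dark green) takes 10.7% to 14.4% in ChR2 and 4.64% to 5.62% in WT wells, and Myh8 (light blue) takes 4.71% to 6.18% and 7.33% to 15.02%.

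Among the slow and cardiac chains, Myh7 (ENSMUSG00000053093) had a share of 10.7% at the lowest, 11.6% at the median and 14.4% at the highest in ChR2 wells. In WT wells it was 4.64%, 5.28% and 5.62%. The lowest ChR2 well thus stood above the highest WT well, a difference of 6.93 percentage points between the means (exact permutation p = 0.00216). Without WT wells 2 and 5 the WT share was 5.396% ± 0.17 (n = 4). The 4 wells lay between 5.23% and 5.62% although their level of Myh7 differed 6.06-fold in CPM. As a share of summed estimated counts the same 4 wells spread more, from 3.88% to 4.71%.

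Myh6 (ENSMUSG00000040752), the fast chain of the heart, had a share of 3.45%, 5.41% and 7.59% (lowest, median, highest) in ChR2 wells. In WT wells it was 0.253%, 2.30% and 3.11%. The wells of the lines did not overlap (difference 3.39 percentage points, exact permutation p = 0.00216). The size of this share rests on the length by which the deposited TPM divides the counts of Myh6. Set against Myh3, the length implied by counts over TPM was 0.14 to 0.24 in 11 wells and 1.00 in WT well 5. GENCODE M21 lists 7 transcripts of Myh6, the longest coding one of 6113 bases and the shortest of 376. As a share of summed estimated counts, with no length, Myh6 was 1.29% ± 0.29 in ChR2 and 0.484% ± 0.11 in WT wells, again with no overlap. For Myh7 the implied length was 0.68 to 0.82 of that of Myh3 outside WT wells 2 and 5, where it was 1.015 and 1.018, and by estimated counts its share was 9.83% ± 1.59 against 4.82% ± 0.96, also apart. Myh7b (ENSMUSG00000074652) had shares of 2.42%, 4.68% and 5.79% in ChR2 and 1.75%, 2.88% and 4.69% in WT wells, which overlapped (exact permutation p = 0.0887). Its implied length was 0.32 to 0.58 of that of Myh3. By estimated counts its share was 2.53% ± 0.62 and 1.58% ± 0.50, a difference with exact permutation p = 0.0216, and by TPM it passed without ChR2 well 4 (1.75 points, 0.0346) or WT well 6 (1.71 points, 0.0455). It did not pass without WT wells 2 and 5, by TPM (1.31 points, exact permutation p = 0.143) or by counts (0.871 points, 0.0619). Together the slow and cardiac chains made up 18.4% to 27.8% of the TPM in ChR2 and 6.98% to 12.7% in WT wells, or 10.98% to 16.9% and 5.33% to 8.56% of the counts.

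Of the developmental chains, Myh8 (ENSMUSG00000055775) had a share of 4.71%, 5.76% and 6.18% (lowest, median, highest) in ChR2 wells. In WT wells it was 7.33%, 11.1% and 15.02%. Every WT well stood above every ChR2 well (difference -5.46 percentage points, exact permutation p = 0.00216). Embryonic Myh3 (ENSMUSG00000020908) took 15.04%, 17.1% and 23.0% in ChR2 and 10.3%, 13.8% and 16.8% in WT wells, which overlapped (difference 3.97 percentage points, exact permutation p = 0.0584). The difference passed without any 1 of WT wells 1, 3 and 5 (up to 4.597 points, p = 0.0455 by the exact permutation test in each). Over estimated counts the share of Myh3 was 19.9% ± 3.29 against 15.3% ± 3.38 (exact permutation p = 0.0346). Without WT wells 2 and 5 the difference was 4.08 points by TPM (exact permutation p = 0.0905) and 5.34 by counts (0.0381). WT wells 1, 3 and 5 held 16.5%, 16.7% and 16.8% of Myh3, within the ChR2 range, and wells 2, 4 and 6 held 10.99%, 10.3% and 10.8%, below it. The ratio of Myh8 to Myh3 TPM was 0.269 to 0.382 in ChR2 and 0.586 to 1.46 in WT wells. With Myh3 and Myh8 summed the lines were close, at 23.3% ± 3.29 and 24.8% ± 3.62.

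The adult fast chains made up 48.6% to 61.2% of the heavy chain TPM in ChR2 and 62.0% to 70.0% in WT wells, which did not overlap. By estimated counts they made up 53.2% to 66.1% and 63.6% to 67.7%, which did. Myh1 (ENSMUSG00000056328) alone took 37.7%, 41.7% and 48.6% in ChR2 and 50.9%, 56.0% and 64.7% in WT wells (lowest, median, highest). The ranges did not meet (difference -13.9 percentage points, exact permutation p = 0.00216). The highest value was that of WT well 2, where the implied length of Myh1 was 0.69 of that of Myh3 against 0.96 to 0.98 in 10 other wells and 0.84 in WT well 5. By estimated counts the share of Myh1 was 46.4% ± 4.87 against 56.3% ± 2.69, again without overlap. Myh4 (ENSMUSG00000057003), the fastest chain, had shares of 8.14%, 9.94% and 15.4% in ChR2 and 3.86%, 5.87% and 11.9% in WT wells (exact permutation p = 0.0628). WT wells 4 and 6, at 10.3% and 11.9%, stood within the ChR2 range, and the other 4 WT wells below it. By estimated counts the share of Myh4 was 11.9% ± 2.87 against 7.83% ± 3.25 (exact permutation p = 0.0433), and by TPM it passed without ChR2 well 4 (3.91 points, 0.0476), WT well 4 (4.06 points, 0.0433) or WT well 6 (4.38 points, 0.0216). Without WT wells 2 and 5 it did not pass, by TPM (2.44 points, exact permutation p = 0.219) or by counts (3.20 points, 0.2). Myh2 (ENSMUSG00000033196) took 1.61% ± 0.57 and 1.37% ± 0.15 of the summed TPM (exact permutation p = 0.355), the lowest mean of the 8 in both lines, whereas by counts, with or without the length of the longest coding transcript, Myh6 had the lowest. ChR2 wells 1, 2 and 4 lay above every WT well for Myh2, at 2.15%, 1.80% and 2.34%, and wells 3 and 5 below every one, at 1.03% and 1.04%.

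**Figure D3:**
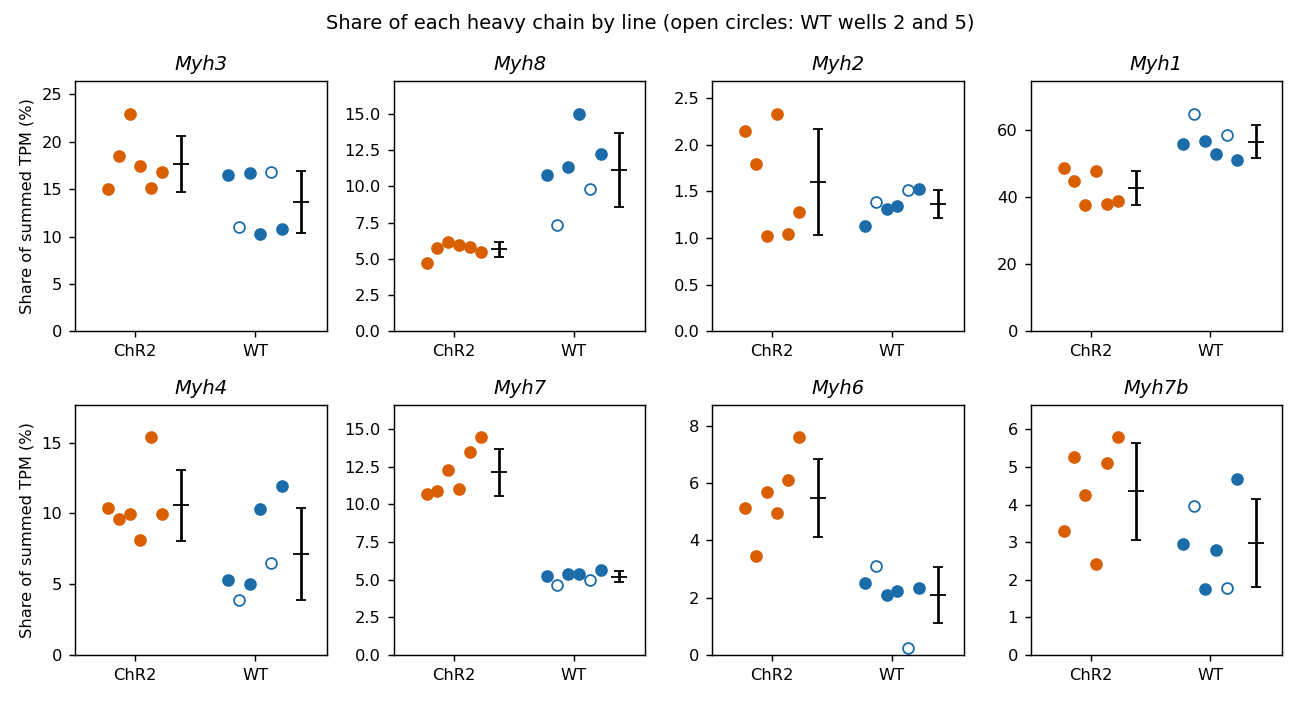
Share of the summed heavy chain TPM (percent) of each gene in 6 ChR2 and 6 WT wells, with the mean and SD to the right of each line's points; open circles are WT wells 2 and 5. ChR2 and WT points do not overlap for Myh8, Myh1, Myh7 and Myh6.

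Slow Myh7 and neonatal Myh8, a pair chosen after their values were seen, changed places between the lines. The ratio of Myh7 to Myh8 TPM was 1.84 to 2.63 in ChR2 and 0.359 to 0.632 in WT wells, so that Myh7 exceeded Myh8 in 6 of 6 ChR2 wells and in 0 of 6 WT wells. By estimated counts the ratio was 1.25 to 1.91 and 0.295 to 0.645. The order of the chains by mean TPM in ChR2 was Myh1, Myh3, Myh7, Myh4, Myh8, Myh6, Myh7b and Myh2. In that order Myh7 exceeded Myh4 in 5 of 6 wells, Myh8 exceeded Myh6 in 3 of 6 and Myh6 exceeded Myh7b in 5 of 6, and each other neighbour pair kept its order in 6 of 6. In WT wells the order was Myh1, Myh3, Myh8, Myh4, Myh7, Myh7b, Myh6 and Myh2. Myh3 stood above Myh8 in 4 of 6 wells there, with means of 131 and 130 TPM, and Myh4 above Myh7 in 4 of 6. These orders rest on the lengths behind the deposited TPM. By counts per length of the longest coding transcript the ChR2 order was Myh1, Myh3, Myh4, Myh7, Myh8, Myh7b, Myh2 and Myh6, with Myh4 above Myh7 in 5 of 6 wells and Myh2 above Myh6 in 3 of 6. The WT order was then Myh1, Myh3, Myh8, Myh4, Myh7, Myh7b, Myh2 and Myh6, with Myh7b above Myh2 in 3 of 6 wells.

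The levels of the heavy chains differed far more between WT wells than between ChR2 wells. Summed over the 8 genes, they came to 860 to 1586 TPM in ChR2 and 255 to 2443 TPM in WT wells, or 517 to 2443 TPM without WT wells 2 and 5. In CPM, counts scaled to library size by TMM, WT well 6 was the highest WT well for 8 of 8 genes, and the lowest was WT well 5 for 5 genes and WT well 1 for 3. The ratio of the highest to the lowest well was 3.85 (Myh3) to 13.3 (Myh7b) in WT and 1.56 (Myh1) to 3.04 (Myh7b) in ChR2. ChR2 well 4 was the lowest ChR2 well for 7 of 8. In such bulk RNA, fewer myotubes and less message per myotube cannot be told apart.

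**Figure D4:**
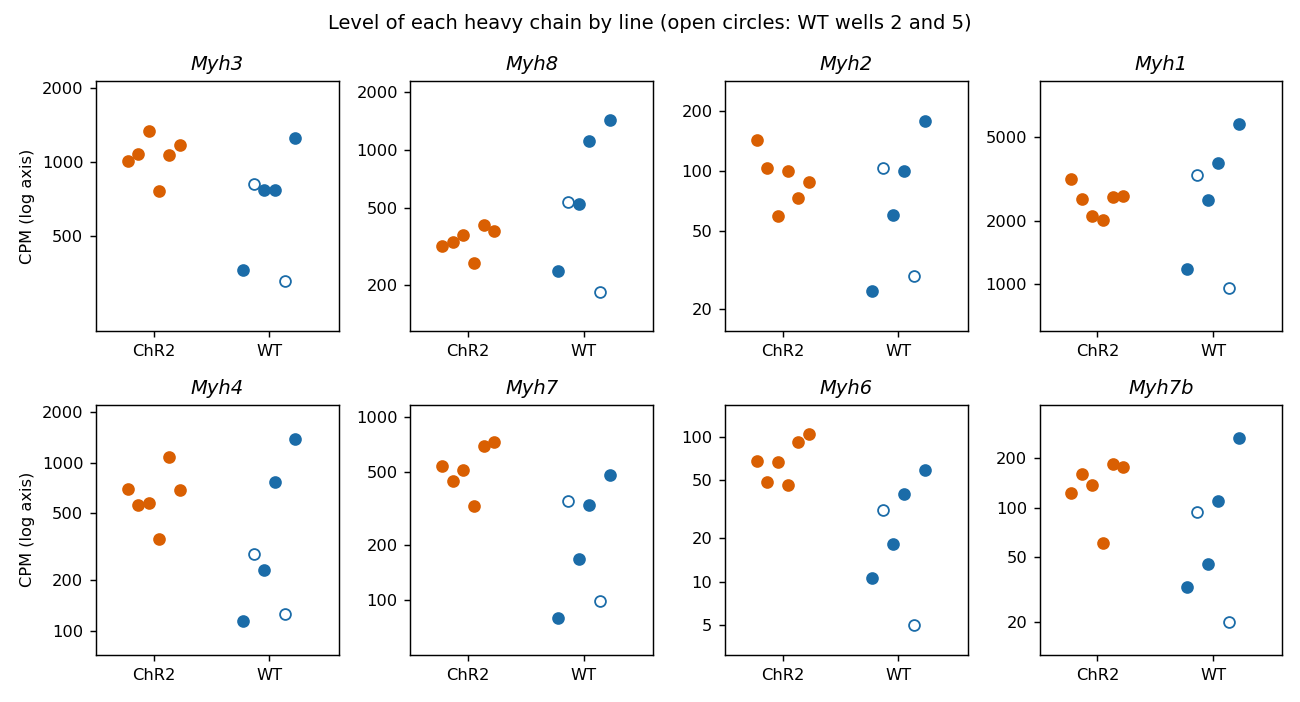
Level of each heavy chain in CPM (log axis) in 6 ChR2 and 6 WT wells; open circles are WT wells 2 and 5. The WT wells of each gene spread over a wider range than the ChR2 wells, and for each gene the lines overlap.

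Levels were then compared gene by gene between the lines. Over all 12 libraries Myh6 and Myh7 rose in ChR2 and none of the 8 fell, 2 of 8 genes where 28.1% of the 13168 genes tested were called, 14% higher and 14.1% lower (quasi-likelihood test of edgeR, adjusted p under 0.05 by Benjamini-Hochberg over all genes). Without WT wells 2 and 5, Myh8 fell and none rose, 1 of 8 genes beside 35.2% of 13484, 18.9% higher and 16.3% lower. DESeq2's Wald test called Myh6, Myh7 and Myh8 over 12 libraries, beside 32.8% of 13161 genes. The median log2 fold change of the 8 in edgeR was 0.50 over 12 libraries and 0.20 over 10, beside -0.02 and -0.0014 over all genes tested. For 0 of 8 genes were the CPM of the lines without overlap in either set of libraries, beside 15.1% and 25% of all genes tested.

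The level of Myh7 was 326, 528 and 731 CPM (lowest, median, highest) in ChR2, against 80.1, 249.7 and 486 CPM in WT wells. WT wells 2, 4 and 6 lay within the ChR2 range and the other 3 below it. Its log2 fold change was 1.11 (SE 0.38, edgeR adjusted p = 0.0422), and 1.04 (SE 0.46, adjusted p = 0.111) without WT wells 2 and 5. Leaving out ChR2 well 1, 2, 3, 5 or 6 or WT well 1, 3 or 5 alone also ended the call (edgeR adjusted p up to 0.0879). For Myh6 the level was 46.8, 67.5 and 104 CPM in ChR2 and 4.995, 24.8 and 58.8 CPM in WT wells, with WT well 6 alone inside the ChR2 range. Its log2 fold change was 1.36 (SE 0.43, edgeR adjusted p = 0.0324). That was 1.16 (edgeR adjusted p = 0.0837) without WT wells 2 and 5, and leaving out ChR2 well 1, 3, 5 or 6 or WT well 1 or 3 ended the call too (up to 0.0717). The count of Myh6 in WT well 5 was 13.8, the lowest of any of the 8 genes in any library.

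Myh8 was at 261, 351 and 409 CPM in the ChR2 wells, against 185, 533 and 1428 CPM in the WT wells (lowest, median, highest). WT wells 1 and 5, at 236 and 185 CPM, lay below the ChR2 range and the other 4 above it. The log2 fold change was -0.96 (SE 0.40, edgeR adjusted p = 0.0862) and -1.25 (SE 0.41, adjusted p = 0.0392) without WT wells 2 and 5, and it also passed without WT well 1 (-1.14) or WT well 5 (-1.16) alone (down to 0.0227). Myh3 averaged 1073 ± 190 and 718 ± 343 CPM, with a log2 fold change of 0.58 (SE 0.28, adjusted p = 0.132). Without WT well 6 it passed (log2 fold change 0.82, edgeR adjusted p = 0.0232), as did Myh7b (1.26, 0.0332), which with all wells was at 141 ± 45.5 and 94.7 ± 91.3 CPM (0.56, 0.462). Of the adult fast chains, Myh1 averaged 2516 ± 412 and 2928 ± 1800 CPM, Myh4 at 660 ± 240 and 485 ± 503 CPM and Myh2 at 94.8 ± 29.3 and 82.7 ± 57.4 CPM. Their log2 fold changes were -0.22, 0.44 and 0.20 (edgeR adjusted p = 0.680, 0.591 and 0.749), and that of Myh1 was 0.095 without WT well 6 (0.847). With 1 library left out, Myh4 ran from 0.23 (without WT well 1) to 1.11 (without WT well 6) and Myh2 from 0.0015 to 0.62 (without the same wells), none called. They were at 0.086 and 0.074 without WT wells 2 and 5.

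**Figure D5:**
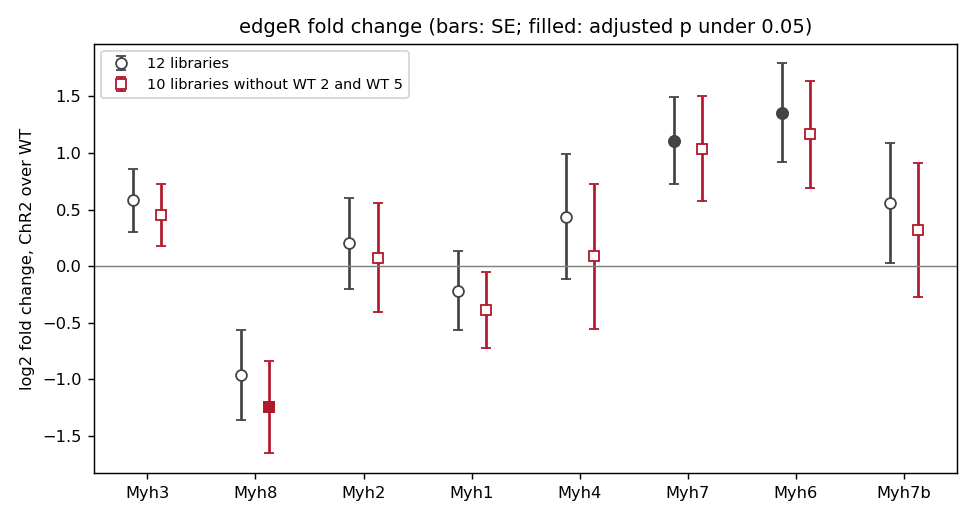
Log2 fold change of each heavy chain level, ChR2 over WT, from edgeR over 12 libraries (circles) and over 10 without WT wells 2 and 5 (squares), with the SE as bars; filled symbols have an adjusted p under 0.05. Myh7 and Myh6 pass in the 12 libraries and Myh8 in the 10.

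Some of these messages are alike enough for reads to be shared among them. Of all 50-base windows of the longest coding transcript, 22.6% for Myh6 and 22.2% for Myh7 also occur in the other of that pair. For Myh1 and Myh2, 26.1% and 26.7% occur in another of the 8 genes, for Myh8 19.9% and for Myh4 18.6%, against 3.66% for Myh3 and 0% for Myh7b. Reads came in pairs of 50 bases, so a pair can be unique where 1 end is not. The deposited estimates bear the name of Salmon, and how shared reads were divided in this run is not stated. The values of Myh6, Myh7, Myh8 and the adult fast chains are uncertain to that extent. Myh6 had the fewer counts of its pair in every well.

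Among the class II heavy chains outside the sarcomeric 8, non-muscle myosin 2B, Myh10, rose in ChR2, at 109 ± 6.29 against 59.0 ± 16.0 CPM (log2 fold change 0.88, SE 0.15, edgeR adjusted p = 0.001, and 1.00 without WT wells 2 and 5). Non-muscle myosin 2A, Myh9, averaged 1005 ± 98.1 and 970 ± 502 CPM (log2 fold change 0.05, adjusted p = 0.908), and rose without WT wells 2 and 5 (0.63, adjusted p = 0.00121). Myh14 was at 2.99 ± 0.47 and 5.29 ± 2.92 CPM (adjusted p = 0.131). Smooth muscle Myh11 had at most 7.001 counts in a library and Myh13, of the eye muscles, at most 23.3, and neither was tested. Myh15 had a count of 0 in every library. Of the 3 tested, 1 rose over 12 libraries and 2 over 10, where 14% and 18.9% of all genes tested rose.

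Lists of genes that work with the heavy chains, and the marker lists after them, are to be read against the 14% of all genes tested that rose and the 14.1% that fell over 12 libraries, and the 18.9% and 16.3% over 10. Of 11 tested thick filament partners (light chains, myosin-binding proteins and myomesins, of 15 listed) 2 fell (median of the log2 fold changes -0.22), and 3 fell without WT wells 2 and 5. The embryonic light chain Myl4 was at 444 ± 36.4 and 868 ± 304 CPM (log2 fold change -0.96, edgeR adjusted p = 0.00189), and Mybph, a relative of myosin-binding protein C, at 1110 ± 182 and 1739 ± 366 CPM (-0.65, adjusted p = 0.0113). Of 9 tested genes of myosin folding and turnover 5 fell and none rose (median -0.59), and 5 fell without WT wells 2 and 5. Trim63 and Trim54, which encode the ubiquitin ligases MuRF1 and MuRF3 of the sarcomere, fell by 1.02 and 0.84 on the log2 scale (edgeR adjusted p = 0.000919 and 0.00154).

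Of 25 tested fibre type regulators, of 27 listed, 3 rose and 5 fell (median -0.19), and 3 rose and 6 fell without WT wells 2 and 5. Vgll2, a cofactor of TEAD factors, rose, at 19.2 ± 2.35 CPM in ChR2 against 4.67 ± 4.05 CPM in WT wells (log2 fold change 1.74, edgeR adjusted p = 0.00249). Esrrg, a nuclear receptor known for oxidative fibres, averaged 2.22 ± 0.70 and 0.489 ± 0.63 CPM (1.72, adjusted p = 0.0274). In the other direction Tead4, which binds the MCAT motif, averaged 59.2 ± 6.69 and 135 ± 28.6 CPM (-1.19, adjusted p = 9.71e-05). Mafa, of the large Maf family known to drive Myh4 in mouse, averaged 46.9 ± 6.72 and 108 ± 62.0 CPM (-1.14, adjusted p = 0.00448, and -0.80 without WT wells 2 and 5).

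Markers of other cell states moved with these results, and their part in them was not tested. Of 7 markers of proliferating myoblasts 6 rose, and 5 without WT wells 2 and 5, among them Ube2c (63.7 ± 5.27 against 14.7 ± 6.98 CPM) and Top2a (221 ± 37.8 against 68.2 ± 39.8 CPM). Their summed level was 603 to 787 CPM in ChR2 and 98.3 to 469 CPM in WT wells, or 173 to 469 CPM without WT wells 2 and 5. Of the 10 myotube markers 3 fell in either set of libraries, including titin, Ttn (log2 fold change -2.005, or -0.79 without WT wells 2 and 5), and the myogenic regulator Myog (-0.84). Of 6 tested fibroblast markers, of 8 listed, 2 rose, Mfap5 (1.61) and Fbn1 (0.95). The summed level of the list was 1164 to 1284 and 502 to 1443 CPM, with Thy1 under 3 counts in every library. Of 4 tested smooth muscle markers, of 6 listed, 2 rose, Smtn (1.09) and Acta2 (0.71), with a summed level of 1237 to 1495 and 588 to 1065 CPM and Myocd under 3 counts throughout.

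Cardiomyocyte markers bear on Myh6 and Myh7, the chains of the heart. Of 10 listed, Hand2, Nppa, Ryr2 and Tbx5 had under 3 counts in every library, and 5 were tested, of which 2 rose over 12 libraries and 3 over 10. The list shares Myl2 and Myl7 with that of thick filament partners. Nkx2-5, a cardiac homeobox factor, averaged 2.43 ± 0.45 CPM in ChR2 against 0.317 ± 0.21 CPM in WT wells (log2 fold change 2.62, edgeR adjusted p = 9.14e-05), and Tnni3, cardiac troponin I, at 2.23 ± 0.66 and 1.52 ± 1.22 CPM (1.04, adjusted p = 0.0308). The summed level of the 10 was 41.9 to 61.3 CPM in ChR2 and 26.2 to 43.3 CPM in WT wells. Beside it, Myh6 averaged 71.2 ± 23.0 and 27.4 ± 20.2 CPM, and Myh7 542 ± 151 and 252 ± 161 CPM.

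The genes whose levels moved most like each heavy chain were looked for within the lines, over the 10 libraries without WT wells 2 and 5, after each line's mean was taken off. Among 10532 genes of at least 5 CPM, the nearest to Myh8 was Fry (Pearson 0.996, Spearman 1.00), to Myh1 Ablim3 (0.990, 0.988) and to Myh7 Tmem64 (0.988, 0.964). The nearest to Myh6 was Osbpl1a (0.991, 0.927), to Myh7b Mpp3 (0.980, 0.988) and to Myh2 Endod1 (0.968, 0.939). Mylk4, a gene of the myosin light chain kinase family, was among the nearest 3 for Myh4, Myh7 and Myh8. These are the highest of many correlations, given as a description without a test. The 10 libraries differed in depth (7388761 to 13628569 counts) and in summed heavy chain TPM (517 to 2443). Deviations were not scaled by line, so the WT wells, whose heavy chain levels spread more, carried more weight in the Pearson values.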

How the data were processed

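Libraries of 12 wells were sequenced in pairs of 50 bases after poly(A) selection, or ribodepletion for low-input samples, per the labels' protocols. Estimated counts per gene and TPM were deposited by the authors, 1 table each. For the tools, the submitters' notes on processing give STAR, Salmon, BWA (0.7.12-r1039) and bedtools (2.25.0). They also name mm10, GRCm39 and hg19 without saying what each served. Coordinates and sequences printed here come from GENCODE M21 and RefSeq (GRCm38.p6).

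For levels, estimated counts were rounded, filtered with filterByExpr (minimum count 10), scaled by TMM and fitted in edgeR 4.0.16 (R 4.3.3) by robust quasi-likelihood. DESeq2 1.42.0, and limma 3.58.1 on log2(TPM + 1) and log2(TPM + 0.1), were alternatives. Shares were tested by exact permutation; sums and ratios over the 8 genes were not tested. The fit was tested on simulated counts with changes set in genes drawn at random. Over 12 libraries it called 18.2%, 61.5% and 97.0% of changes of 1.5, 2 and 4-fold. Over 10 libraries it called 35.4%, 75.4% and 93.9%. Of its calls over 12 and 10 libraries, 4.9% and 5.6% were false. A gene that was not called is therefore not shown to be unchanged. The simulation gave both lines the same dispersion per gene, whereas the heavy chains spread more between WT than ChR2 wells. These rates need not hold for the 8 genes. Libraries of a line differed by more than sampling noise (lowest chi-square per degree of freedom 5.09).

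The 8 genes and the other lists were chosen with earlier results of these data known. Named were, per list, up to 2 rises and 2 falls of the largest log2 fold change among called genes of at least 1 CPM in the higher line, all other class II heavy chains, and per heavy chain the nearest 3 genes by Pearson correlation, of which the first is printed, except for Myh3 and Myh4, where it is not reported here. Reads carried no molecular identifiers, so depth speaks for counting error only.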

Additional observations from a re-analysis of the deposited data

Results flagged for a closer look

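Of 80 groups of 6 wells (levels of the named genes and shares of the 8 heavy chains in each line), 10 held a well far from the other 5 by Dixon's test, which chance does for about 1 group in 20. For the heavy chains, WT well 6 held 267 CPM of Myh7b, the other WT wells 20.0 to 109 CPM. ChR2 well 5 had a Myh4 share of 15.4%, the other ChR2 wells 8.14% to 10.4%. WT well 5 had a Myh6 share of 0.253% of TPM, the others 2.08% to 3.11%. In that well the length implied for Myh6 was 1.00 of that of Myh3, against 0.14 to 0.24 elsewhere, and its share of estimated counts was 0.282% against 0.419% to 0.573% in the other WT wells.

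Among the other named genes, WT well 2 stood apart for 4: Mafa at 232 CPM (others 64.9 to 102), Myl4 at 1468 CPM (654 to 879), Trim63 at 157 CPM (62.0 to 92.2) and Tnni3 at 3.93 CPM (0.733 to 1.43). Tnni3 had at most 33 counts in any library, and WT well 2 had the lowest total (1061068), so its Tnni3 value rests on few reads. Fbn1 was at 284 CPM in ChR2 well 1 (343 to 376 in the other ChR2 wells), Myh9 at 1196 CPM in ChR2 well 3 (941 to 1018) and Ttn at 2002 CPM in ChR2 well 2 (1033 to 1370).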

How the results depend on the processing

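The shares of Myh1, Myh6, Myh7 and Myh8 kept their direction and stayed past the threshold in each alternative run for them. For Myh3 the difference in share passed by counts (4.61 points), per transcript length (4.65), by counts without WT wells 2 and 5 (5.34) and without Myh6 and Myh7b in the sum (5.21), and ranged from 2.91 to 4.597 with each library left out. For Myh4 it passed by counts (4.02), per length (4.07) and over those 6 genes (4.21; 2.46 to 4.38 with each library left out), and for Myh7b by counts (0.951) and per length (0.939; 1.08 to 1.75). By counts without WT wells 2 and 5 neither passed (Myh4 3.20, Myh7b 0.871). The count per length and the counts without WT wells 2 and 5 were chosen after seeing the data.

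For levels, limma on log2(TPM + 0.1), log2(TPM + 1) without a filter and log2(TPM + 1) with a filter called 254, 402 and 592 genes higher and 17, 23 and 28 lower. How many genes these fits tested is not given here, and of the 8 they called 0, 0 and 1 higher. They put Myh1 at 0.357, 0.356 and 0.356 (log2), opposite in sign to edgeR, Myh6 at 2.41, 2.18 and 2.18 without a call, Myh7 at 1.98 and 1.94 without a call in the first 2, and Myh8 at -0.18, -0.19 and -0.19 (lowest adjusted p 0.873) against -0.96 in edgeR. With no filter on counts 0 of 8 were higher (Myh6 1.35, Myh7 1.12), beside 1575 genes. How many genes that fit tested is not given here. Without WT wells 2 and 5, 0 were higher (Myh6 1.16, Myh7 1.04) and 1 lower (Myh8 -1.25). Beside them 2545 (18.9%) and 2204 (16.3%) of 13484 genes tested were higher and lower. By DESeq2 1 was lower (Myh8 -0.95), beside 2117 of 13161 genes tested, of which 32.8% were called in either direction. With each library left out, 0 to 4 of the 8 were higher (beside 1497 to 2120 genes) and 0 to 1 lower (beside 1284 to 2127). How many genes each of these fits tested is not given here. Myh1 then ran from -0.40 to 0.095 (the latter without WT well 6), Myh2 from 0.0015 to 0.62, Myh3 from 0.43 to 0.82 and Myh4 from 0.23 to 1.11. Myh7b ran from 0.35 to 1.26, Myh6 from 1.16 to 1.79, Myh7 from 0.92 to 1.42 and Myh8 from -1.16 to -0.60. The cause of these changes was not tested.

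Replicate numbers did not pair the wells: deviations of same-numbered wells correlated at -0.144 to 0.0954, and 1 of 12 wells correlated best with its own number. With the number as a replicate block, 1470 genes were higher and 1171 lower. Myh1 was at 0.011, Myh6 at 1.63 and Myh7 at 1.34 (both called), and Myh8 at -0.61. With the replicate block and without wells 2 and 5 of either line, 0 of 8 were higher (Myh6 1.37, Myh7 1.23), beside 1719 genes. How many genes the fits with a block tested is not given here. Paired sign flips of the shares changed no call (smallest possible exact p 0.0312). Depth limits Myh6 most, at 13.8 counts in WT well 5.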
